A study of Saccharomyces cerevisiae with 7 samples.

Results

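The genes described here are those for which a yeast strain with an empty plasmid lay outside the range of 6 others. These 6 strains carried the plasmid with a gene for green fluorescent protein (GFP), plain or modified. On the array labelled empty vector, the signal lay above every one of the 6 GFP arrays for 456 genes and below every one for 663 genes, that is 1119 of the 6225 gene names on the array. All 7 strains shared the host BY4741 (MATa his3Δ1 leu2Δ0 met15Δ0 ura3Δ0) and grew in SC–Ura to mid log phase. Each carried the multicopy plasmid pTOW40836, which holds *URA3* and leu2d, a weak allele of *LEU2*. The control carried this plasmid with no GFP gene. GFP and GFPdeg, the latter with a degron of ornithine decarboxylase, were expressed from the *TDH3* promoter. misfoldingGFP, a mutant that does not fold, MTS-GFP, with a mitochondrial targeting signal, and ssGFP, with a signal sequence for the endoplasmic reticulum (ER), were expressed from the *PYK1* promoter. NES-GFP, with a nuclear export signal, was expressed from the *HXT7* promoter.

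Each strain was measured on 1 Agilent array from 1 culture, so that no strain has a replicate, and the 6 GFP arrays are 6 different constructs and not replicates of each other. The GFP gene, the promoter, the copies of the plasmid and the culture cannot be told apart in the comparison. The values below are log2 signals minus the 75th percentile of the array, so that a gene with the value 0 is as bright as the spot at that percentile. The gap of a gene is the distance from the empty vector to the nearest GFP array, and the difference is the empty vector minus the mean of the 6 GFP arrays, both on the log2 scale. Errors given after a gap are standard errors from the spots of the 2 arrays it joins, and they leave out labelling, hybridization and culture. Levels of different genes were not compared, since each probe has its own brightness.

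Yeast cells adjust the transcripts for vitamins and metals to their need. Genes for thiamine (vitamin B1) synthesis and uptake are transcribed when thiamine pyrophosphate is scarce, through Thi2, Thi3 and Pdc2. Zap1 turns on zinc genes when zinc is scarce, and Mac1 turns on copper uptake when copper is scarce. While glucose lasts, genes for the glyoxylate cycle, gluconeogenesis and the use of other carbon sources are held down, and they are turned on around the diauxic shift, when cells pass from fermentation to respiration.

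Members above every GFP array made up 7.33% of all genes and members below 10.7%. These shares are no sign of a difference by themselves, because 1 of the 7 arrays is always the highest. The count of members in each gene list below is to be read beside these shares. In the plot of extremes by array, the empty vector held the top place for fewer genes than any other array but NES-GFP, which held it for 217, while misfoldingGFP held it for 1657. It was the lowest for more genes than GFP (576) and NES-GFP (451) and for fewer than the other 4 arrays, of which MTS-GFP was the lowest for 1565. In the order of the 7 arrays, the empty vector took the middle place for 1560 genes (25.1%).

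**Figure D1:**
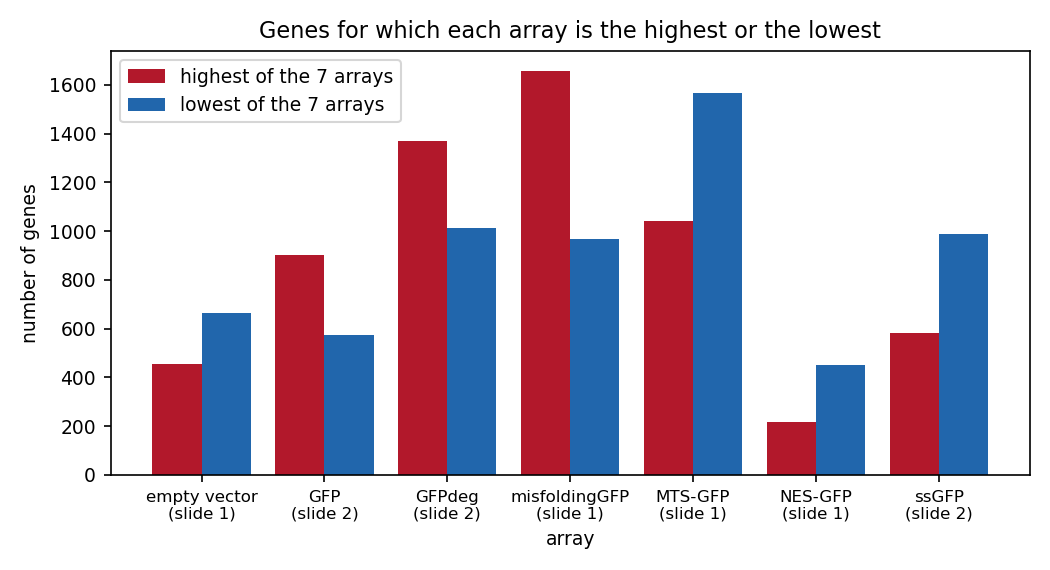
Number of genes, of 6225, for which each array was the highest (red) or the lowest (blue) of the 7, with the slide of the array under its name. The empty vector was the highest for 456 genes and the lowest for 663, in both cases fewer than GFPdeg, misfoldingGFP and MTS-GFP.

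Most members lay close to the nearest GFP array. The median gap was 0.09 (1.06-fold) among members above and 0.11 (1.08-fold) among members below, while the spots of 1 probe on an array had a pooled SD of 0.11. The gap was over 2 standard errors for 282 of 456 members above and for 393 of 663 below. A gap of more than 1.5-fold was found for 31 genes above (0.498% of all genes) and 54 below (0.867%), and of more than 2-fold for 12 above (0.193%) and 12 below (0.193%). More than 3-fold separated the arrays for 4 genes above and 2 below. Set against the mean of the 6 GFP arrays in place of the nearest, the empty vector was more than 2-fold higher for 35 genes (0.562%) and more than 2-fold lower for 145 (2.33%). At the edge of the range, *CDC3* lay inside the members above with a gap of 0.00005 and *YIP5* just outside, and *CDC20* lay inside the members below with 0.0002 and *BDH2* just outside. At the 2-fold edge, *CTR1* (1.04) was inside and *TDA4* (0.95) outside for the genes above, and *YHR214W* (1.01) was inside and *CDA2* (0.99) outside for the genes below.

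No gene could be tested against replicates of the empty vector. An exact permutation test of 1 array against 6 cannot give a p under 0.143 (one-sided) or 0.286 (two-sided). When the 6 GFP constructs were treated as if they were replicates, limma called 0 of 6225 genes at a Benjamini-Hochberg adjusted p under 0.05, and 149 genes (2.39%) had an unadjusted p under 0.05. The smallest adjusted p was 0.0808, for *IZH4*. With the slide as a block, limma called 0 genes, the smallest adjusted p was 0.0687, and 776 genes had an unadjusted p under 0.05. Since the members were found by these same values, all that follows is a description.

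The arrays lay on 2 slides. MTS-GFP, NES-GFP, misfoldingGFP and the control with no GFP shared slide 1, while GFPdeg, ssGFP and GFP were on slide 2. The 3 GFP arrays of slide 1 did not overlap with the 3 of slide 2 for 2754 genes (44.2%), among them 154 members above and 182 below, and the empty vector lay in the space between them for 1026 of these genes (37.3%). Against the GFP arrays of its own slide alone, the empty vector was above all 3 for 1852 genes (29.8%) and below all 3 for 1949 (31.3%). Whether the slide had a part in a difference was not tested, and the median difference of a gene list is given against the mean of each slide or against single arrays as well as against all 6.

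The strain labels were checked on genes of the host and the plasmid. The signals of *HIS3* and *MET15*, which the host lacks, did not pass the limit for being well above background on a single array, and the 6 markers of MATa cells (*STE2*, *STE6*, *BAR1*, *ASG7*, *MFA1* and *MFA2*) passed it on all 7. Of 4 markers of MATalpha cells, 3 also passed this low limit on all 7 arrays. None of the probes used reads the GFP transcript, so that the constructs were taken from the labels. Between 97.0% (ssGFP) and 98.9% (GFPdeg) of yeast spots were well above background, and 5978 genes (96.0%) were so on all 7 arrays, among them 455 of the members above and 598 of the members below.

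The 2 marker genes of the plasmid were both members above, and the chromosomal copies of both are deleted in the host. *URA3*, which encodes orotidine-5′-phosphate decarboxylase of pyrimidine synthesis, had a signal of 6.75 in the empty vector, 5.84 in GFP, 4.90 in GFPdeg, 3.40 in misfoldingGFP, 3.59 in MTS-GFP, 5.19 in NES-GFP and 4.43 in ssGFP. The empty vector was thus the highest, GFP came next, and the lowest were misfoldingGFP and MTS-GFP. Its gap was 0.91 ± 0.04 (1.87-fold) and its difference 2.19. *LEU2*, which encodes β-isopropylmalate dehydrogenase of leucine synthesis, had 3.27 in the empty vector, 2.81 in GFP, 1.62 in GFPdeg, 1.58 in misfoldingGFP, 1.09 in MTS-GFP, 2.72 in NES-GFP and 1.89 in ssGFP. Here too GFP and NES-GFP followed the empty vector, with a gap of 0.46 ± 0.04 (1.38-fold) and a difference of 1.32. The rest of both pathways did not go along with the markers. Of 16 pyrimidine genes, 2 were above every GFP array (*URA3* and *URA5*, gap 0.12), against 7.33% of all genes. *URA10* (0.18), *PPR1* (0.08), *FUI1* (0.05) and *URA1* (0.03) were the 4 below, against 10.7% of all genes. The median difference of the 16 genes was -0.06, or 0.013 against slide 1 and -0.14 against slide 2. Of 16 genes for leucine and the other branched-chain amino acids, *LEU2* alone was above and *BAP2*, a permease for these amino acids, alone was below, at 2.02 in the empty vector against 2.60 to 3.23 in the GFP arrays. The median difference of these genes was -0.10, or 0.010 against slide 1 and -0.15 against slide 2.

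Transcripts for thiamine synthesis and uptake were higher in the empty vector than in every GFP strain for 17 of 23 genes, against 7.33% of all genes, and for 0 of 23 were they lower than in every one. The 17 count *THI5*, *THI11*, *THI12* and *THI13*, and also *SNO2* and *SNO3*, singly, although probes may not tell such copies apart. The median difference of the list was 0.49 (all genes, -0.01), and 21 of the 23 lay above the mean of the 6 GFP arrays. The median was 0.49 against the GFP arrays of slide 1 and 0.55 against those of slide 2, and against single GFP arrays it ran from 0.26 (misfoldingGFP) to 0.72 (MTS-GFP). Of the 12 genes with a gap over 2-fold, 4 came from this list.

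*THI4* makes the thiazole part of thiamine. Its signal was 4.28 in the empty vector, -0.40 in GFP, 0.49 in GFPdeg, -0.00 in misfoldingGFP, 0.69 in MTS-GFP, -0.10 in NES-GFP and 1.75 in ssGFP. ssGFP was the nearest array and set the gap of 2.53 ± 0.04 (5.79-fold), while the other 5 lay lower, and the difference from the mean was 3.88. *THI73*, a transporter-like gene under thiamine control, had 1.87 in the empty vector, -1.16 in GFP, 0.14 in GFPdeg, -2.48 in misfoldingGFP, -1.91 in MTS-GFP, -1.27 in NES-GFP and -1.17 in ssGFP. GFPdeg stood apart from the other GFP arrays and set the gap of 1.73 ± 0.04 (3.31-fold). *PET18*, another gene under thiamine control, had 1.18 in the empty vector, -0.73 in GFP, -0.35 in GFPdeg, -1.72 in misfoldingGFP, -1.27 in MTS-GFP, -1.38 in NES-GFP and -1.07 in ssGFP, and GFPdeg was again the nearest (gap 1.53 ± 0.03, 2.89-fold). *THI20*, a kinase for the pyrimidine part of thiamine, had 1.57 in the empty vector, 0.01 in GFP, 0.44 in GFPdeg, -1.05 in misfoldingGFP, -0.39 in MTS-GFP, -0.49 in NES-GFP and -0.04 in ssGFP (gap 1.13 ± 0.02, 2.18-fold). For *THI73*, *PET18* and *THI20* alike, GFPdeg was the highest GFP array and misfoldingGFP the lowest.

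The members of the list with narrower gaps covered regulation, transport and the last steps. *THI2*, the transcriptional activator of the pathway, was at -0.84 in the empty vector and between -2.75 and -1.75 in the GFP arrays (gap 0.91). *THI7*, the thiamine transporter of the plasma membrane, was at 2.80 against -0.07 to 1.92 (gap 0.89). *THI6*, which joins the thiazole and pyrimidine parts, lay 0.68 above a GFP range of -0.26 to 0.42, and *THI80*, which makes thiamine pyrophosphate, at -1.98 against -2.85 to -2.18 (gap 0.19). *PHO3*, a phosphatase that frees thiamine from its phosphates, was at 1.87 against -0.88 to 1.66 (gap 0.21), and *THI3*, a sensor subunit, at -1.14 against -1.53 to -1.19 (gap 0.05). *THI5*, *THI11*, *THI12* and *THI13* are near-identical copies that make the pyrimidine part, so that their probes may not tell them apart. All 4 were members above, with gaps of 0.06, 0.14, 0.07 and 0.26. *SNO2* and *SNO3*, which are copies of each other in the same way, had gaps of 0.10 each, and *THI22* of 0.21. The 6 genes of the list inside the GFP range included the copies *SNZ2* and *SNZ3*, for which GFPdeg lay above the empty vector, and *PDC5*, a pyruvate decarboxylase that uses thiamine pyrophosphate, for which misfoldingGFP did (3.15 against 3.06).

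**Figure D2:**
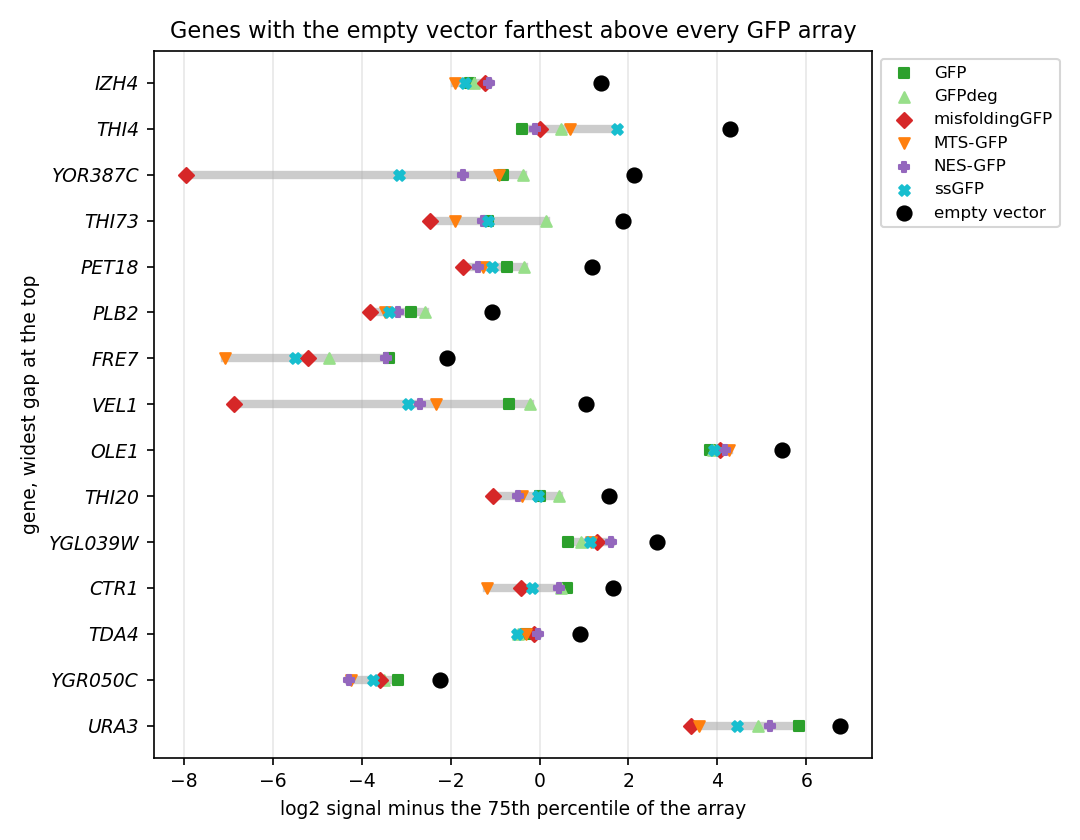
Signal of the 15 genes with the widest gap above every GFP array among genes well above background on all 7 arrays, as log2 relative to the 75th percentile of each array. Black circles show the empty vector, coloured symbols the 6 GFP arrays and grey bars their range. For *IZH4* the 6 GFP arrays lie close together (-1.90 to -1.15) and far below the empty vector (1.39), while for *YOR387C* and *VEL1* misfoldingGFP lies far below the other GFP arrays.

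Among zinc genes the gap was wide for a few targets of Zap1, and most of the others lay inside the GFP range. *IZH4*, a membrane protein linked to zinc homeostasis, had 1.39 in the empty vector, -1.57 in GFP, -1.47 in GFPdeg, -1.22 in misfoldingGFP, -1.90 in MTS-GFP, -1.15 in NES-GFP and -1.68 in ssGFP. The 6 GFP arrays lay within 0.75 of each other and the empty vector 2.53 ± 0.04 (5.79-fold) above the highest of them. This gap and that of *THI4* were the widest and differed by less than their errors, and their order changed with the normalization. *YOR387C*, which has *VEL1* as its paralog and may share probe signal with it, had 2.11 in the empty vector, -0.82 in GFP, -0.37 in GFPdeg, -7.95 in misfoldingGFP, -0.92 in MTS-GFP, -1.73 in NES-GFP and -3.16 in ssGFP. *VEL1* had 1.05 in the empty vector, -0.69 in GFP, -0.21 in GFPdeg, -6.89 in misfoldingGFP, -2.33 in MTS-GFP, -2.70 in NES-GFP and -2.97 in ssGFP. In both genes GFPdeg was the nearest array and misfoldingGFP far below the rest, so that the differences from the mean (4.61 and 3.68) are much wider than the gaps (2.48 ± 0.03 and 1.26 ± 0.01). *ADH4*, an alcohol dehydrogenase induced by low zinc, was at 1.36 in the empty vector and between -2.71 (misfoldingGFP) and 0.82 (GFPdeg) in the GFP arrays. *IZH2* and *IZH1*, of the same family as *IZH4*, had gaps of 0.61 and 0.37.

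In all, 6 of 22 Zap1 targets were above every GFP array and 2 below (*HOR7*, 0.06; *ATG41*, 0.01), against 7.33% and 10.7% of all genes. The median difference was 0.46, and 19 of the 22 lay above the mean of the 6 GFP arrays. This median depended on the array used: it was -0.07 against GFPdeg, 0.09 against GFP, 0.37 against ssGFP and 0.76 to 0.89 against the GFP arrays of slide 1, or 0.08 against the mean of slide 2 and 0.73 against that of slide 1. *ZRT1*, the high-affinity zinc transporter and a main target of Zap1, was not a member: it had 4.75 in the empty vector, 4.78 in GFP, 5.24 in GFPdeg, 1.27 in misfoldingGFP, 3.45 in MTS-GFP, 3.48 in NES-GFP and 4.24 in ssGFP. Thus GFP and GFPdeg reached the level of the empty vector, and misfoldingGFP lay lowest. *ZAP1* itself was at -2.67 in the empty vector, with GFP (-2.42) and GFPdeg (-2.56) above it and the other 4 at -3.46 to -2.79. For *ZRT3*, which releases zinc from the vacuole, GFP (2.01) and GFPdeg (2.36) likewise reached the level of the empty vector (1.99).

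Of 11 genes for copper uptake and buffering, *CTR1*, *FRE7* and *FRE1* were higher in the empty vector than in every GFP strain, *CUP1-1*, *CUP1-2* and *MAC1* were lower, and the other 5 lay inside the GFP range. *CTR1*, the high-affinity copper transporter, had 1.64 in the empty vector, 0.61 in GFP, 0.49 in GFPdeg, -0.42 in misfoldingGFP, -1.19 in MTS-GFP, 0.44 in NES-GFP and -0.18 in ssGFP. *FRE7*, a metal reductase induced by low copper, had -2.07 in the empty vector, -3.40 in GFP, -4.73 in GFPdeg, -5.22 in misfoldingGFP, -7.09 in MTS-GFP, -3.46 in NES-GFP and -5.50 in ssGFP. *FRE1*, the main reductase for copper and iron at the cell surface, had 1.47 in the empty vector, 0.25 in GFP, 0.27 in GFPdeg, -0.39 in misfoldingGFP, -0.71 in MTS-GFP, 0.57 in NES-GFP and -0.35 in ssGFP. In all 3 genes MTS-GFP was the lowest array, and GFP or NES-GFP the nearest to the empty vector, with gaps of 1.04 ± 0.03 (2.05-fold), 1.32 ± 0.04 (2.50-fold) and 0.90. The gap of *CTR1* was under 2-fold without scaling (0.85) and after normexp and quantile normalization (0.99). *CUP1-1* was at 4.02 in the empty vector and at 4.25 to 5.66 in the GFP arrays, highest in MTS-GFP, and *CUP1-2*, the identical copy next to it, could not be told apart from it. *MAC1*, the activator of copper uptake, was at -3.16 against -2.96 to -2.61. The median difference of the 11 genes was 0.07, or 0.21 against slide 1 and 0.12 against slide 2. Of 27 genes for iron uptake, 1 was above (*FRE1*) and 5 below, against 7.33% and 10.7% of all genes. Those below were *HMX1*, *FIT1*, *MRS4*, *ISU1* and *COT1*. The median difference of the 27 genes, -0.09, joined opposite signs, -0.39 against slide 1 and 0.39 against slide 2. *HMX1*, the haem oxygenase, was at -1.68 in the empty vector and between -0.90 and 0.45 in the GFP arrays (gap 0.78).

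Members above included genes of fatty acid and phospholipid synthesis, which were put into lists after the values had been seen. *OLE1*, the desaturase that makes all unsaturated fatty acids of yeast, had 5.47 in the empty vector, 3.83 in GFP, 3.91 in GFPdeg, 4.06 in misfoldingGFP, 4.26 in MTS-GFP, 4.18 in NES-GFP and 3.93 in ssGFP. The 6 GFP arrays lay within 0.43 of each other, and the empty vector 1.21 ± 0.03 (2.31-fold) above the highest. This gap was 0.66 after loess and 0.74 after normexp and quantile normalization, both under 2-fold, and it was 0.73 after quantile normalization alone and 0.94 without scaling. *MGA2*, an activator of *OLE1* held in the ER membrane, was at 0.30 in the empty vector and between -1.23 and -0.25 in the GFP arrays. *FAS1* and *FAS2*, the subunits of fatty acid synthase, were at 4.73 and 4.60 in the empty vector, with GFP the nearest array in both and gaps of 0.48 and 0.60. *ACC1*, acetyl-CoA carboxylase, was at 3.83 against 2.74 to 3.40. *FAA4*, which activates long-chain fatty acids, was at 2.13 against 0.64 to 1.55, and *ACB1*, the acyl-CoA binding protein, at 4.12 against 2.97 to 3.69. Together with *ELO3* (gap 0.15), 8 of 16 genes of a fatty acid list were above every GFP array, against 7.33% of all genes. Below was 1 (*FAA1*, by less than the error of its spots). The median difference of this list was 0.65, or 0.78 against slide 1 and 0.24 against slide 2. This list and the lists of phospholipid genes and of carbon-source regulators below were written after the values had been seen, so that their counts describe only how the members were put together.

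Of 34 phospholipid and glycerolipid genes, 12 were above and 2 below, against 7.33% and 10.7% of all genes. The median difference was 0.26, or 0.21 against slide 1 and 0.22 against slide 2. *PLB2*, a phospholipase B, had -1.07 in the empty vector, -2.88 in GFP, -2.58 in GFPdeg, -3.82 in misfoldingGFP, -3.47 in MTS-GFP, -3.18 in NES-GFP and -3.40 in ssGFP. Its gap was 1.51 ± 0.01 (2.85-fold), set by GFPdeg. *ALE1*, an acyltransferase for lysophospholipids, was at -0.21 in the empty vector against -1.77 to -1.07. *ITR1*, the inositol transporter, was at 3.33 against 2.29 to 2.88, and *HNM1*, the choline transporter, at 1.68 against 0.50 to 1.24. *SCT1*, *PSD1* and *SLC1*, enzymes of phospholipid synthesis, had gaps of 0.35, 0.34 and 0.29. Of 24 ergosterol genes, 8 were above every GFP array, against 7.33% of all genes, and 0 below. The widest gaps lay in early steps of the pathway (*MVD1*, 0.46; *ERG10*, 0.34; *ERG13*, 0.33). The median difference of 0.29 came mainly from slide 2 (0.54) and was 0.05 against slide 1. *ERG3*, a late enzyme, was at 3.88 in the empty vector, 4.15 to 4.39 in the GFP arrays of slide 1 and at most 3.44 in those of slide 2.

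The other genes with wide gaps above belong to no group described so far. *YGL039W*, an aldehyde reductase, had 2.64 in the empty vector, 0.64 in GFP, 0.93 in GFPdeg, 1.29 in misfoldingGFP, 1.15 in MTS-GFP, 1.60 in NES-GFP and 1.12 in ssGFP, a gap of 1.04 ± 0.03 (2.06-fold). This gap was under 2-fold after loess (0.88), without scaling (0.69) and after normexp and quantile normalization (0.96). *TDA4*, of unknown function, had 0.91 in the empty vector and -0.52 to -0.03 in the GFP arrays, which lay close together. *YGR050C*, also uncharacterized, had -2.24 in the empty vector and -4.29 to -3.18 in the GFP arrays. *SAM2*, which makes S-adenosylmethionine, was the only member above among 27 genes of sulfate assimilation and methionine, at 1.72 against 0.78 to 1.13. In the same list, *JLP1* (0.44), *MET5* (0.28), *MET3* (0.17) and *MET16* (0.08) were below every GFP array by the gaps given. That is 4 of 27, against 10.7% of all genes. The median difference was -0.23, or -0.55 against slide 1 and -0.042 against slide 2, and it was -0.37 without GFP. Of the 456 members above, *YDR274C* was the only one not well above background on all 7 arrays, with a gap of 0.11.

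The genes farthest below the GFP arrays were led by a pair that is known from cells short of glucose. *RGI2*, a gene needed for respiratory growth under some conditions, had -6.66 in the empty vector, -4.59 in GFP, -4.97 in GFPdeg, -4.58 in misfoldingGFP, -3.18 in MTS-GFP, -4.24 in NES-GFP and -4.47 in ssGFP. *SPG4*, a gene known from stationary phase, had -3.80 in the empty vector, -1.68 in GFP, -2.12 in GFPdeg, -0.77 in misfoldingGFP, 1.01 in MTS-GFP, 0.00 in NES-GFP and -1.29 in ssGFP. In both, GFPdeg was the nearest and MTS-GFP the farthest array, with gaps of 1.69 ± 0.09 (3.23-fold) and 1.68 ± 0.04 (3.21-fold) and differences of -2.33 and -3.00. After normexp and quantile normalization these gaps were 0.73 and 1.45, and *RGI2* was as dim in the empty vector as genes described below as near background. *ISF1*, a gene linked to mitochondrial function, had -2.82 in the empty vector, -0.48 in GFP, -0.99 in GFPdeg, -1.99 in misfoldingGFP, 0.00 in MTS-GFP, -1.60 in NES-GFP and -0.30 in ssGFP, so that its gap of 0.84 ± 0.06 was set by misfoldingGFP. *YKR075C*, of unknown function, had -0.22 in the empty vector, 1.73 in GFP, 1.17 in GFPdeg, 1.30 in misfoldingGFP, 1.64 in MTS-GFP, 0.88 in NES-GFP and 1.56 in ssGFP. Here the 6 GFP arrays lay within 0.85 of each other, and the empty vector stood 1.11 ± 0.04 (2.15-fold) below the lowest.

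**Figure D3:**
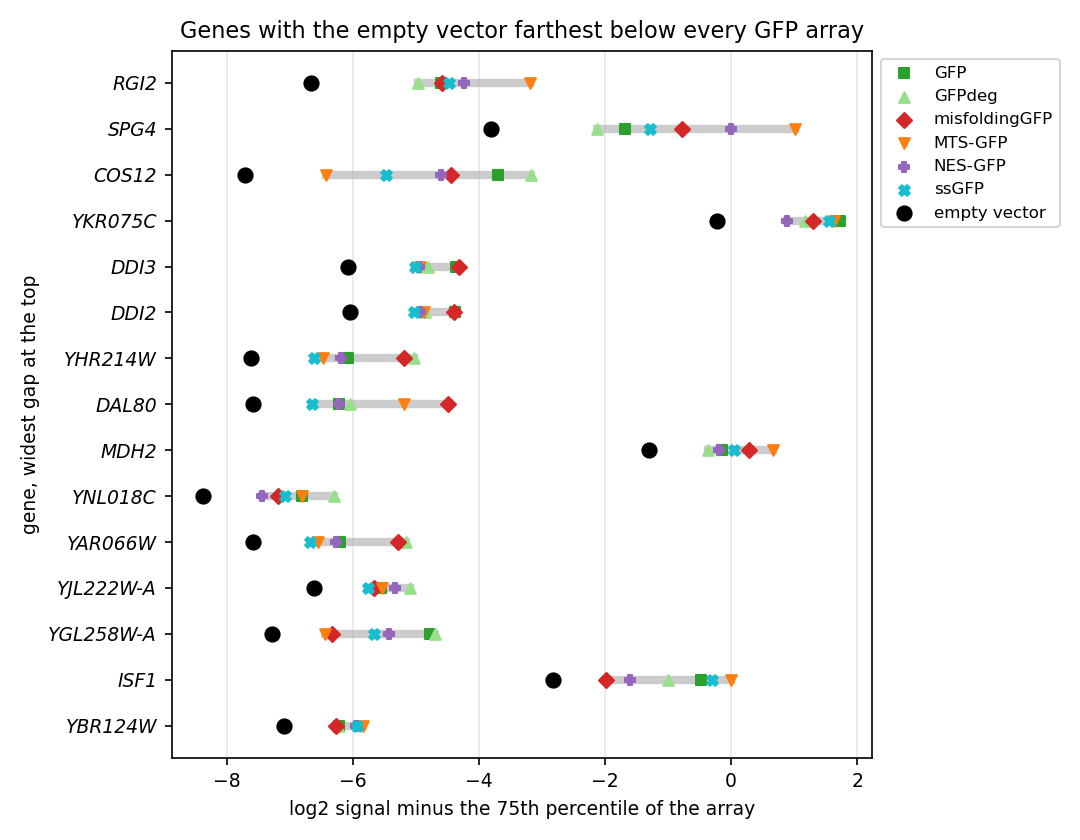
Signal of the 15 genes with the widest gap below every GFP array among genes well above background on all 7 arrays, as log2 relative to the 75th percentile of each array. Symbols are as in the plot of genes above: black circles show the empty vector, coloured symbols the 6 GFP arrays and grey bars their range. MTS-GFP is the highest array for *RGI2*, *SPG4*, *MDH2* and *ISF1*.

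Genes of the tricarboxylic acid (TCA) cycle, the glyoxylate cycle and gluconeogenesis were below every GFP array for 12 of 27, against 10.7% of all genes, and above for 1 (*LSC1*, gap 0.09). The median difference was -0.51, or -0.51 against slide 1 and -0.42 against slide 2, and it was below 0 against each GFP array, from -1.09 (MTS-GFP) to -0.13 (misfoldingGFP). *MDH2*, the cytosolic malate dehydrogenase of gluconeogenesis, had -1.30 in the empty vector, -0.15 in GFP, -0.36 in GFPdeg, 0.29 in misfoldingGFP, 0.67 in MTS-GFP, -0.19 in NES-GFP and 0.04 in ssGFP, with a gap of 0.94 ± 0.02 (1.92-fold). MTS-GFP was the highest array, and the other 5 lay within 0.65 of each other. *ADR1*, an activator of genes for ethanol and fatty acid use, had -3.33 in the empty vector, -2.68 in GFP, -2.49 in GFPdeg, -1.91 in misfoldingGFP, -0.95 in MTS-GFP, -1.95 in NES-GFP and -2.48 in ssGFP. *CIT3*, a mitochondrial citrate synthase, was at -3.58 in the empty vector against -2.96 to -1.37. *CIT2*, its peroxisomal counterpart in the glyoxylate cycle, was at 2.37 against 2.69 to 4.07, and *ICL1*, isocitrate lyase of the same cycle, at -1.99 against -1.71 to -0.56. *FBP1*, fructose-1,6-bisphosphatase, was at -4.41 against -4.29 to -2.79, which left a gap of only 0.12. The transport genes *CAT2* (carnitine acetyltransferase), *ADY2* (acetate), *JEN1* (lactate and pyruvate) and *SFC1* (succinate and fumarate) had gaps of 0.45, 0.41, 0.21 and 0.09, and *ACO1* and *IDH1* of the TCA cycle 0.36 and 0.08. MTS-GFP was the highest array for 11 of these 12 genes, *FBP1* being the exception.

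Of 27 genes of the diauxic shift and of carbon-source regulation, 13 were below and 1 above (*HAP1*, gap 0.0001). Over all genes the shares were 10.7% below and 7.33% above, and this list was written after the values had been seen. Its median difference was -0.41, or -0.54 against slide 1 and -0.36 against slide 2. Besides *RGI2*, *SPG4*, *ISF1* and *ADR1*, the members below included *HAP4*, the activating subunit of the factor that turns on respiratory genes. *HAP4* was at -1.55 in the empty vector against -0.87 to 0.24 in the GFP arrays. *MIG2*, a glucose repressor, was at -0.09 against 0.39 to 1.43. *TMA10*, a small protein bound to ribosomes, was at 1.96 against 2.68 to 3.97. *POT1* and *POX1*, enzymes of fatty acid oxidation, had gaps of 0.55 and 0.40. Of 22 hexose transporters and sensors, 5 were below and 0 above. *HXT10* was at -5.22 against -4.62 to -3.62, and *HXT2*, induced when glucose is low, at 1.86 against 2.34 to 4.13. The subunits of the respiratory chain and of ATP synthase did not go along with these genes: 3 of 39 were below, 1 was above, and the median difference was -0.041, or -0.097 against slide 1 and -0.0038 against slide 2. For 25 genes of glycolysis and fermentation the counts were 1 above (*ADH4*) and 4 below.

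General stress genes under Msn2 and Msn4 were below the mean of the GFP arrays for 37 of 39. They were below every GFP array for 6, against 10.7% of all genes, and above every one for 0. The median difference was -0.41 and changed sign between arrays: it was -1.35 against MTS-GFP and -0.70 against NES-GFP, but 0.20 against misfoldingGFP and 0.21 against GFPdeg. Without MTS-GFP it was -0.15. *DDR2*, a heat and DNA damage response gene, had 0.31 in the empty vector, 2.03 in GFP, 0.85 in GFPdeg, 1.45 in misfoldingGFP, 3.40 in MTS-GFP, 1.93 in NES-GFP and 1.44 in ssGFP. *CTT1*, cytosolic catalase, had -0.92 in the empty vector, 0.90 in GFP, -0.52 in GFPdeg, -0.11 in misfoldingGFP, 1.38 in MTS-GFP, 0.24 in NES-GFP and 0.84 in ssGFP. In both, GFPdeg was the nearest array and MTS-GFP the highest. Of 26 pheromone response genes, 6 were below (*PRM2*, *PRM6*, *PRM3*, *MSG5*, *FUS1* and *FUS3*, gaps of 0.03 to 0.36) and 0 above. The shares of all genes were 10.7% below and 7.33% above. Only 24 of the 26 were well above background on all 7 arrays. In the empty vector *PRM6* was at -10.39, the level of *HIS3* (-10.36), which the host lacks, and *PRM3* was at -8.52. The median difference of the list was -0.38, or -0.15 against slide 1 and -0.45 against slide 2. It was -0.23 without GFP and -0.24 without ssGFP. The median of the MATa markers was 0.32 against slide 1 and -0.58 against slide 2. Of 14 genes of NAD synthesis, 4 were below and 0 above, against the same shares of all genes, with gaps of at most 0.20. Their median difference was -0.17 (-0.14 against slide 1 and -0.21 against slide 2).

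Several of the genes farthest below lay near background, where a difference is less certain. The same limit holds for *RGI2* (-6.66 in the empty vector), *POT1* (-6.78), *ADY2* (-6.52) and *POX1* (-6.07), described above. *COS12*, of a family of membrane protein genes near chromosome ends, had -7.71 in the empty vector, -3.70 in GFP, -3.17 in GFPdeg, -4.45 in misfoldingGFP, -6.42 in MTS-GFP, -4.61 in NES-GFP and -5.48 in ssGFP. The GFP arrays spread over 3.25 and the gap was 1.29 ± 0.13 (2.45-fold), set by MTS-GFP. After background correction by normexp and quantile normalization this gap was 0.42. Of the 11 genes of the *COS* family, *COS8* was also below (0.49) and *COS6* was above (0.03). *DDI3* and *DDI2*, near-identical genes for cyanamide hydratase, cannot be told apart by these probes and count as 1 signal: they were at -6.08 and -6.05 in the empty vector and at -5.03 to -4.31 in the GFP arrays. *YHR214W* and *YAR066W*, another near-identical pair, were at -7.62 and -7.59 against -6.67 to -5.03. *DAL80*, a repressor of genes for poor nitrogen sources, was at -7.59 against -6.64 (ssGFP) to -4.50 (misfoldingGFP). The gaps of *DDI3*, *YHR214W* and *DAL80* were 1.07 ± 0.05, 1.01 ± 0.09 and 0.95 ± 0.16, and after normexp and quantile normalization 0.58, 0.15 and 0.17. *YNL018C*, *YJL222W-A*, *YGL258W-A* and *YBR124W*, all of unknown function, had gaps of 0.92, 0.86, 0.84 and 0.82. After normexp and quantile normalization, *YBR124W* was no longer below every GFP array.

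Of the 12 genes more than 2-fold below, 5 were not well above background in the empty vector. Only a rough bound can be given for these, as the mean of the 6 GFP arrays against the lowest level well above background. With the main scaling it was 2.19-fold for *YNL034W*, 1.86-fold for *YDR215C* and 3.08-fold for *YBR300C*, each well above background on all 6 GFP arrays. It was 2.26-fold for *YBL108W*, well above background on 4 of them, and this mean takes in the arrays that were not. After normexp and quantile normalization the differences were much smaller. They were -0.29 for *YNL034W*, -0.17 for *YDR215C*, -0.29 for *YBR300C* and -0.36 for *YBL108W*, so that the bounds hold for the main scaling only. The remaining gene, *YFL012W-A*, was singled out because it completes this count, and its measured level was -10.03 in the empty vector and -8.97 to -5.50 in the GFP arrays. None of these 5 names has an assigned function.

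Some members with a gap over 1.5-fold are neighbours in the gene order of the reference annotation R64. *ADR1* and the dim *YDR215C* were both below, as were *HXT10* and *YFL012W*, and *COS12* and *YGL262W*. *FRE1* and *CRR1*, a cell wall gene of spores, were both above, with gaps of 0.90 and 0.67. *VEL1* was above, while its neighbour *YGL258W-A* was below, at -7.28 in the empty vector and -6.44 to -4.70 in the GFP arrays. Whether a neighbour's transcript adds to a probe's signal was not tested.

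Other gene groups are set here beside the shares of all genes, 7.33% above and 10.7% below. The ribosomal protein, ribosome biogenesis and proteasome groups held fewer members than these shares. Some groups had a median away from 0. Of 136 genes for cytosolic ribosomal proteins, 2 were above every GFP array and 0 below. Their median difference of 0.13 joined 0.48 against slide 1 and -0.23 against slide 2, and it was 0.85 against MTS-GFP and -0.28 against GFP. Of 102 ribosome biogenesis genes, 1 was above (*TIF6*, gap 0.34) and 1 below. None of the 33 subunits of the 26S proteasome was beyond the GFP arrays, and their median was -0.59 against GFPdeg and 0.20 to 0.29 against the other 5. Of 31 genes for folding and degradation in the ER, 3 were above (*HAC1*, *EMC1* and *ERV2*, gaps of 0.14 to 0.19) and 0 below, with -0.32 against ssGFP and 0.05 to 0.50 against the other 5. None of the 18 mitochondria-encoded genes was a member. Of 30 PAU, DAN and TIR genes, cell wall genes of anaerobic growth, 2 were below, and the median was 0.67 to 1.04 against the GFP arrays of slide 2 and -2.55 to -0.56 against those of slide 1.

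**Figure D4:**
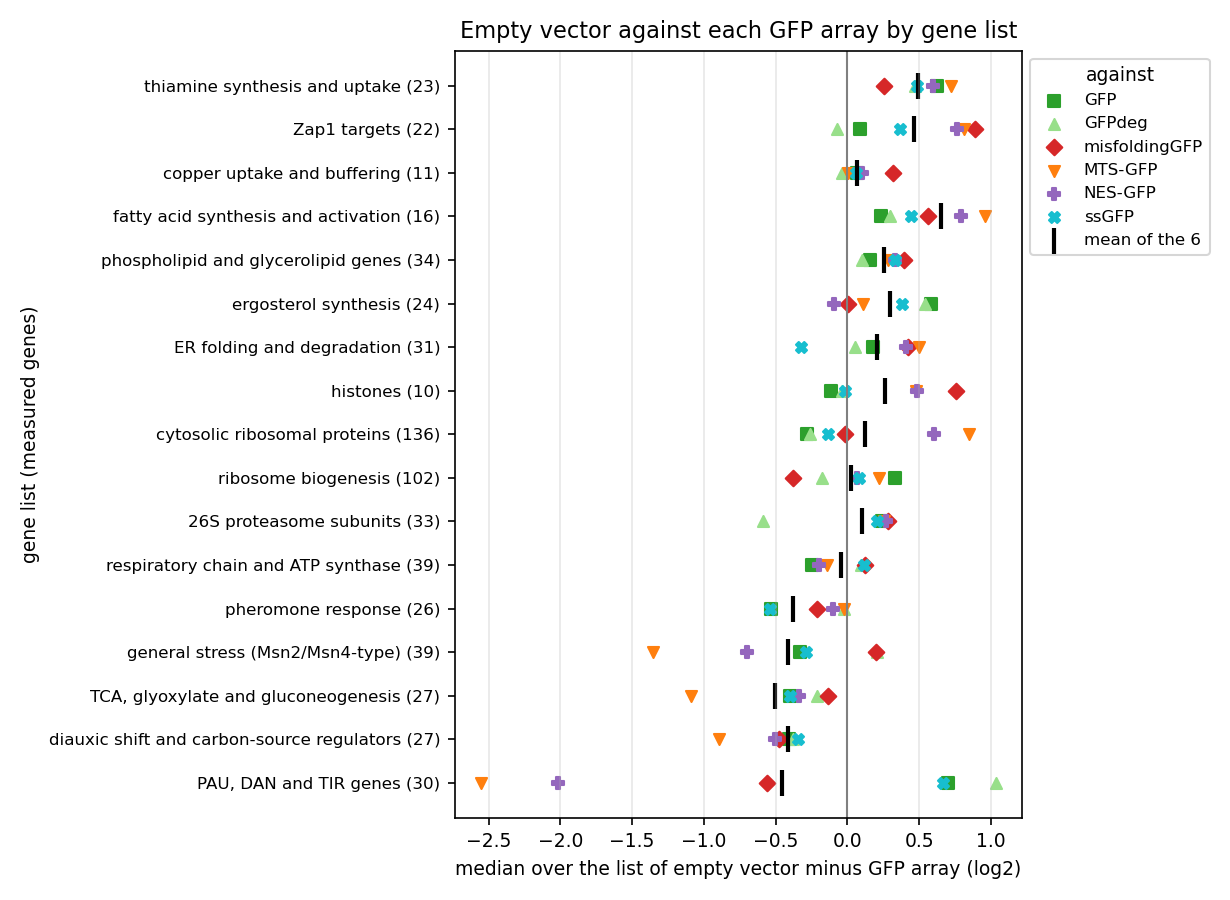
Median over each gene list of the empty vector minus a GFP array, on the log2 scale, for each of the 6 GFP arrays (coloured symbols) and for their mean (black bars), with the number of measured genes in parentheses. Thiamine genes lie above 0 (0.26 to 0.72) and TCA, glyoxylate and gluconeogenesis genes below 0 (-1.09 to -0.13) against each GFP array, while ribosomal protein, stress and PAU genes lie on both sides of 0.

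The GFP array nearest to the empty vector differed among the members. Among members above, it was GFPdeg for 112, misfoldingGFP for 108, GFP for 100, ssGFP for 51, NES-GFP for 44 and MTS-GFP for 41. Among members below, it was NES-GFP for 135, GFPdeg for 132, ssGFP for 131, misfoldingGFP for 103, MTS-GFP for 88 and GFP for 74. Over all genes, the highest of the 6 GFP arrays was NES-GFP for 4.19% and MTS-GFP for 17.4%, against 9.65% and 8.99% among the members above. The lowest was NES-GFP for 9.41% and MTS-GFP for 26.6% of all genes, against 20.4% and 13.3% among the members below. GFP was the highest for 16.1% of all genes and 21.9% of the members above, and misfoldingGFP for 28.4% and 23.7%.

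A gene beyond all 6 GFP arrays is by that choice on the same side of the arrays of each slide, so that the plot by slide shows only how far it lay from each. Against the 3 GFP arrays of its own slide alone, where the gap cannot be narrower than against all 6, it was 3.59 for *THI4*, 2.53 for *IZH4*, 1.56 for *URA3*, 1.21 for *OLE1*, 2.08 for *RGI2* and 3.03 for *SPG4*.

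**Figure D5:**
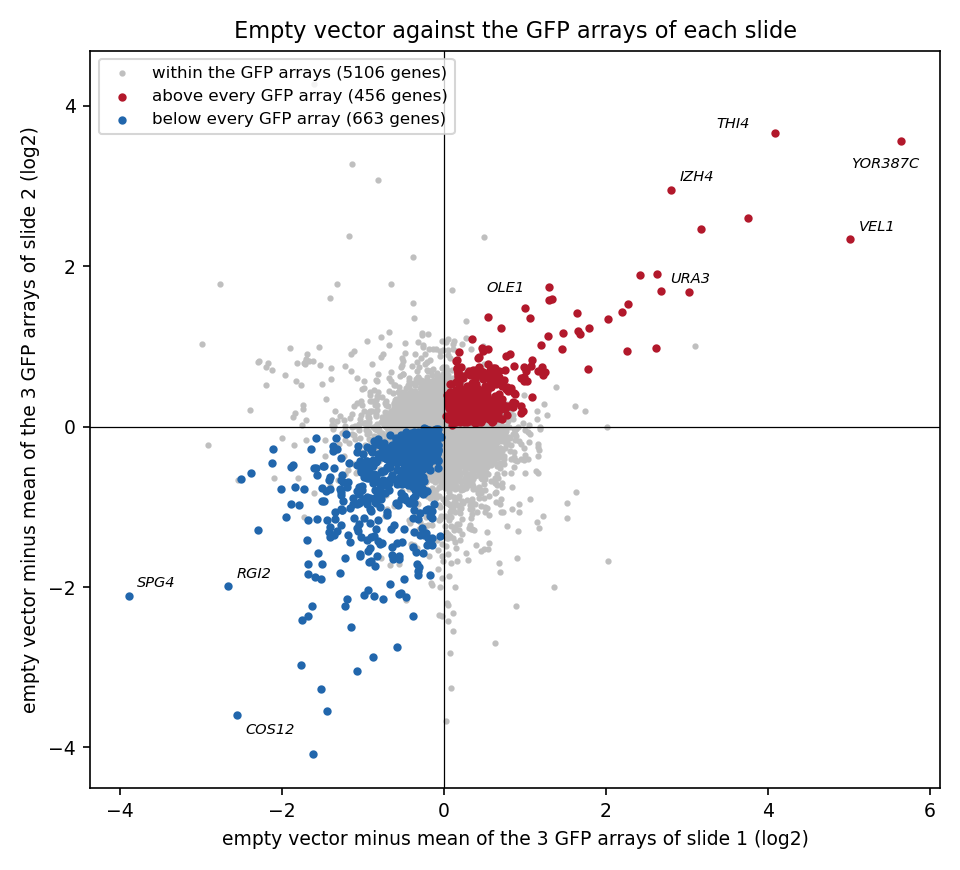
Empty vector minus the mean of the 3 GFP arrays of slide 1 (horizontal axis) against the same for slide 2 (vertical axis), on the log2 scale, with 1 point per gene. Red points are the 456 genes above every GFP array, blue points the 663 genes below and grey points the 5106 genes within the range, which also fill the quadrants where the slides have opposite signs.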

How the data were processed

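The authors scanned 7 one-colour (Cy3) Agilent arrays, and per the file headers Feature Extraction 10.10.1.1 (protocol GE1_1010_Sep10, annotation of the array design sacCer2) made the deposited intensity of each spot, corrected for background and not scaled between arrays. The paper names agilp for later steps, which were not used here. The deposited value table equalled these intensities for 316463 spots (tolerance 1e-06).

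Control and outlier spots were left out. Then log2 was taken, the 75th percentile of each array (3719 to 5626 intensity units) subtracted, and means taken over the 7 spots of each probe and over the probes of each gene (6256 probes, 6225 names, 5737 of them named by the R64 gene table). A gene counted as well above background when at least 4 spots of each probe did. Samples were grouped by their labels, with 1 array per construct and hence no replicate error; the number of arrays limits the precision. Named genes were the plasmid markers, the host deletions, the 15 widest gaps per direction among genes well above background on all arrays, up to 4 dim genes per direction and list members beyond all GFP arrays. Those said to be inside the range, and those named for their neighbours, were chosen after their values were seen. The members and the 39 gene lists were chosen with earlier results of these data known, and 3 further lists after the values had been seen.

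limma 3.58.1 (R 4.3.3) gave the moderated fit as an alternative. Other alternatives were quantile, loess and median normalization, no scaling, normexp (offset 50), filters, other thresholds and other sets of arrays. The step that finds genes beyond all other arrays was tested on simulated data of 6225 genes and found 200 of 200 changed genes. The simulated shifts were much larger than the median gap of the members, and all genes had the same spread. It is therefore a check of the code and does not show how narrow gaps are handled. A planned search for promoter motifs was not run.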

Additional observations from a re-analysis of the deposited data

Results flagged for a closer look

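In 5 gene lists, and in the 2 lists that served as checks of the strain (MATa markers, and host deletions at background), the empty vector lay above all 3 GFP arrays of one slide and below all 3 of the other by the list's median. The difference between the slides was not tested, and what had a part in it was not tested. For the PAU, DAN and TIR genes the median difference was -1.70 against the mean of slide 1 and 0.80 against the mean of slide 2. Genes of glycolysis and fermentation had 0.48 and -0.31, histone genes 0.56 and -0.037, and translation factors 0.31 and -0.10. The genes whose promoters drive the GFP constructs (*TDH3*, *HXT7* and *PYK1*, listed as *CDC19*) had 0.52 and -0.24, and the MATa markers 0.32 and -0.58.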

How the results depend on the processing

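The 15 genes with the widest gaps above every GFP array stayed above under all 8 other ways of treating the arrays (quantile, loess, median or no scaling, normexp, outlier spots kept, median of probes, slide-centred), and 14 of the 15 below stayed below. These genes were chosen for wide gaps in the same values, so that this is a description and not separate support. The median of probes kept all 456 and 663 members, since few genes have more than 1 probe. Under other settings the numbers of genes moved more. Without scaling between arrays, 247 genes were above every GFP array. Against the GFP arrays of slide 1 only, 1852 were above and 1949 below, 41 and 60 by more than 2-fold, where the empty vector had only 3 arrays to pass in place of 6. After centring on each slide the counts were 1502 and 1580, 30 and 47 by more than 2-fold. At 1.5-fold the counts were 31 above and 54 below, at 3-fold 4 and 2, and from the mean of the 6 GFP arrays 35 and 145. More than 2-fold below were 5 genes after quantile normalization, 2 after normexp, 7 among genes well above background on all arrays, and the cause was not tested for the first pair. limma called 0 and 0, also with the slide as a block. Leaving out each GFP array in turn gave 480 to 723 genes above (723 without misfoldingGFP) and 723 to 876 below, 12 to 17 and 14 to 17 of them by more than 2-fold. Of the 12 and 12 genes past 2-fold, quantile normalization kept 11 and 5, normexp 9 and 2, loess 10 and 9, no scaling 9 and 10. The median difference of ribosomal protein genes ran from -0.0258 (without MTS-GFP) to 0.22 as GFP arrays were left out, and that of mitochondria-encoded genes was 0.13 against slide 1 and after centring, on the other side of 0. No paired analysis was possible because each group has 1 array. With 1 array per strain, gaps near their own spot error and signals near background are limits on single genes. The counts also changed with the set of arrays compared and with centring on each slide. Whether the slide itself had a part in this was not tested.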
